A study of Mus musculus with 14 samples.

Results

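Interferon-stimulated genes (ISGs) are the genes that cells switch on in answer to interferons, and 37 of them were followed in epidermal stem cells (EpdSCs) over induction of SOX9. The 37 were chosen by name as rows of the deposited expression table, which lists 54332 genes, and all 37 were found. They comprise 4 transcription factors, 4 genes of the ISG15 system, 6 nucleic acid sensors and RNA-binding enzymes, 12 antiviral effectors, 5 interferon-inducible GTPases and 6 other ISGs. Values are TPM, a measure of transcript abundance already divided by transcript length, so that levels of different genes may be set side by side.

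The cells came from back skin of CD1 mice that carried K14rtTA and TRE-myc-Sox9 in every group used here, D0 included, so that doxycycline (DOX) turns on a MYC-tagged SOX9 in cells with an active Krt14 promoter. EpdSCs were sorted as cells negative for CD31, CD45, CD117, CD140a and CD34, with high CD49f and high Ly6A. D0 is the start of DOX at postnatal day 21, and W1, W2 and W6 follow after 1, 2 and 6 weeks, at postnatal days 28, 35 and 63, with 2 biological replicates each. W12 also has 2 replicates, after 12 weeks of DOX, but there neonatal skin had been grafted onto immunocompromised Nude hosts, female by the study's methods, and had healed before DOX was given. At W12 the length of induction, the graft, the host and the age of the skin therefore cannot be told apart, and no grafted library without SOX9 induction was analysed here.

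Interferons act on cells through surface receptors joined to JAK kinases. Type I and type III interferons lead to a complex with STAT2 and IRF9 that binds the interferon-stimulated response element (ISRE), and interferon-γ acts mainly through the gamma-activated site (GAS). The induced genes sense foreign nucleic acid, block steps of viral growth, raise IRF factors that prolong the answer, and, as USP18 does, end it.

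Both elements were searched for in the sequences ahead of the genes. ISRE was searched as GAAA, any 2 bases and GAAA again, and GAS as TTCNNNGAA, on both strands, in RefSeq promoter windows on GRCm38.p6 that reach from 250 bases before to 50 after the gene start. Of the 37 ISGs, 29 had a window, and 15 of the 29 (51.7%) held an ISRE match, against 3.99% of 27025 genes with a window and 3.57% of the 9603 of them tested below. GAS matches were found in 9 of 29 (31.0%), against 9.55% of genes with a window, and in *Bst2* an ISRE match shared bases with a GAS match. A match is a run of letters and not a measured binding site. The stretches below show what a match looks like, with ISRE matches in capitals and read on the strand of the gene, in 4 genes of the GTPase, ISG15 and effector groups whose levels are described further on, in *Ifit1* and *Oas3*, which were too low to test, and in *Irf1*, shown for its GAS match.

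Gbp7, chr3:142530253-142530322, plus strand: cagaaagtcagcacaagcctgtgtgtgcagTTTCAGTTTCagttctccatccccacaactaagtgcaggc
Igtp, chr11:58199492-58199555, plus strand: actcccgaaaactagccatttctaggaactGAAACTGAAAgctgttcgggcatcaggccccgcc
Isg15, chr4:156200845-156200926, minus strand: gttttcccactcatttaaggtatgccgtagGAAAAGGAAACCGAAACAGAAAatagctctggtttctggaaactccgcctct
Bst2, chr8:71537557-71537632, minus strand: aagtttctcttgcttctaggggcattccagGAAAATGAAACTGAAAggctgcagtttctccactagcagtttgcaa
Ifit1, chr19:34640755-34640843, plus strand: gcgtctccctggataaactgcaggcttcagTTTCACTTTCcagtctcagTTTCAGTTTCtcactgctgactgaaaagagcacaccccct
Oas3, chr5:120777695-120777764, minus strand: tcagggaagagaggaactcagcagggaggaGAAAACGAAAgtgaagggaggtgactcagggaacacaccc
Irf1, chr11:53769894-53769962, plus strand, GAS in capitals: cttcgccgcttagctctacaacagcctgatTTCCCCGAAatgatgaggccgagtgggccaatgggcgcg

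*Isg15* held 3 overlapping ISRE matches, the first beginning 78 bases before its start, *Bst2* held 2 overlapping ones, and *Ifit1* held 2 that lie apart. The single match of *Igtp* began 34 bases before the start. Windows were not given for *Usp18*, *Dhx58*, *Zbp1*, *Oas2*, *Rtp4*, *Ifi27*, *Parp9* and *Parp14*.

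Before the genes, the libraries. Every library held the basal keratinocyte keratin *Krt14* at high levels, and the transgene, listed as MYC-SOX9, stood at 45.6 and 89.6 TPM (D0) and between 606 and 3410 TPM in the 8 induced libraries. D0 replicate 2 is labelled male but held 4.61 TPM of the X-linked *Xist* and only 0.0278 TPM of *Ddx3y*, a gene of the Y chromosome. Most counts of ISGs and of pathway genes called against D0 are therefore also given without it. The shares of all genes called are those of the fit to all 10 libraries, unless another fit is named, and were not set beside these reduced counts. The counts of libraries that do not overlap were not recomputed without it. Both W12 libraries listed *Xist* (5.51 and 3.5 TPM) beside *Ddx3y* (11 and 12.9 TPM). The graft hosts were female, and the part of host RNA in the W12 values of the ISGs was not tested. The summed TPM of 17 immediate-early and dissociation stress genes was 35600 and 58400 in the D0 libraries and 6980 to 15300 in the others, and the part of this difference in any result against D0 was not tested. TPM carry no read depth, so the counting error of each value is unknown.

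As a family, the ISGs had their lowest summed level at W6 and their highest at W12. The mean summed TPM of the 37 genes went from 587 (D0) through 520 (W1), 523 (W2) and 272 (W6) to 717 (W12). Without *Ifi27*, the gene with the most transcripts, the sums were 346, 241, 268, 144 and 545 TPM. W6 had the lowest mean of the 5 timepoints in 24 of the 37 genes, and W12 the highest in 27. These sums were taken over bulk RNA, in which fewer cells of a type and less RNA per cell cannot be told apart.

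**Figure D1:**
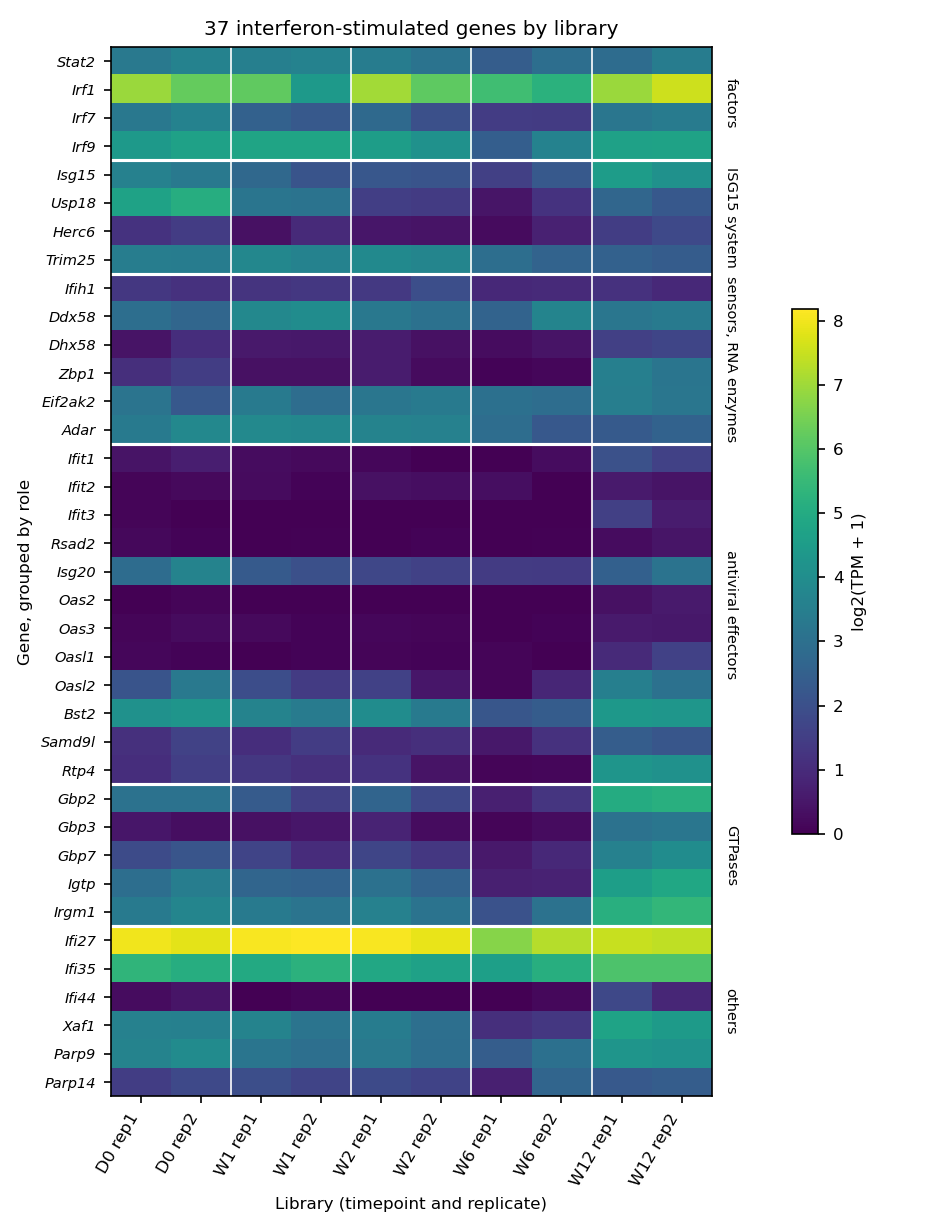
Level of each of the 37 genes, as log2(TPM + 1) by colour, in the 10 libraries, with the genes grouped by role and white lines between timepoints and groups. The W6 columns are darker than the D0 columns for 28 genes in both libraries, and the W12 columns are brighter than all 8 others for 23 genes.

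Both W6 libraries lay below both D0 libraries for 28 of the 37 ISGs, against 12.9% of all 38965 genes with a TPM above 0, and above both for 0 of the 37, against 29.2%. Both W12 libraries lay above both D0 libraries also for 28 of the 37, against 24.2% of all genes. A stricter count asks that both libraries of a timepoint stand clear of the 8 others. By it, 23 of the 37 were highest in both W12 libraries, against 7.4% of all genes, and 15 of the 37 were lowest in both W6 libraries, against 1.58%. Among the 28 ISGs with a mean of at least 1 TPM the counts were 14 and 14, against 10.1% and 3.56% of the 13110 such genes. Among the 24 ISGs that reached this mean over D0 to W6 they were 10 and 11, against 8.09% and 3.57% of 12860 genes.

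These 28 genes could be tested with limma on log2(TPM + 1), with p adjusted by Benjamini-Hochberg over all 13110 genes and a gene called where the adjusted p was under 0.05. The 9 that were too low to test were *Dhx58*, *Ifit1*, *Ifit2*, *Ifit3*, *Rsad2*, *Oas2*, *Oas3*, *Oasl1* and *Ifi44*. Another 4, *Herc6*, *Zbp1*, *Rtp4* and *Gbp3*, reached 1 TPM only through W12. The counts at W6 and W12 against D0 and for W12 against W6 are therefore also given for the other 24. Those at W1 and W2, for W6 against W2 and of the F test are given for the 28 only. The F test called all 4 of these genes. Over the 4 contrasts with D0 together, the moderated F test called 22 of the 28, against 57.5% of all genes tested, and without D0 replicate 2 it also called 22, against 56.6%.

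At W1, 2 of 28 ISGs were lower than at D0 and 0 higher, against 9.89% of all genes called (4.1% lower). The 2 were *Irf7* and *Usp18*. At W2, 6 of 28 were lower and 0 higher, against 15.7% of all genes (6.64% lower), namely *Irf7*, *Usp18*, *Isg15*, *Isg20*, *Oasl2* and *Zbp1*. Of these, *Zbp1* passed the filter only through W12. The median change of the 28 was −0.22 at W1 and −0.37 at W2 on the log2(TPM + 1) scale, beside 0.09 and 0.06 for all genes tested. Between W1 and W2 limma called 0 ISGs, against 0.114% of all genes, and 3 had an unadjusted p under 0.05, against 14.5%. Without D0 replicate 2, *Usp18* alone was called at W1 and at W2. Without W1 replicate 2 the count at W1 was 0, and without W2 replicate 1 or W2 replicate 2 the count at W2 was 2 or 1.

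At W6, 18 of 28 ISGs were lower than at D0 and 0 higher, against 32.4% of all genes called, with 14.1% lower and 18.3% higher. The median change of the 28 was −1.11, beside 0.08 for all genes tested. Of the 24 genes not carried by W12, 16 were lower. Without D0 replicate 2 the count was 9, with *Adar*, *Gbp7*, *Irf9*, *Oasl2*, *Parp9*, *Rtp4*, *Stat2*, *Trim25* and *Zbp1* no longer called. The 7 calls that held in every alternative in which the gene was tested were those of *Bst2*, *Isg20*, *Gbp2*, *Igtp*, *Usp18*, *Xaf1* and *Irf7*. Against W2, 9 of 28 were lower at W6 and 0 higher, against 16.3% of all genes (8.31% lower), but without W2 replicate 1 or W2 replicate 2 the count fell to 2 or 3.

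Keratinocyte and immune markers moved at W6 as well. Of 6 basal markers, 4 were lower at W6 than at D0 and 0 higher, beside 14.1% and 18.3% of all genes. They were *Krt5*, a basal keratin (−0.74, SE 0.17, adjusted p = 0.012), the integrin gene *Itga6* (−1.15, SE 0.2, adjusted p = 0.00335), *Trp63*, the factor p63 (−1.36, SE 0.31, adjusted p = 0.0125), and *Col17a1*, a hemidesmosome collagen (−1.7, SE 0.25, adjusted p = 0.00178). Of 6 suprabasal markers, 3 were higher and 0 lower, beside the same shares, namely *Ivl* (3.08, SE 0.23, adjusted p = 8.92e-05), *Flg* (3.21, SE 0.58, adjusted p = 0.00451) and *Sbsn* (0.98, SE 0.33, adjusted p = 0.0497). The call of *Krt5* was lost without W6 replicate 2, that of *Trp63* without W6 replicate 1, and that of *Sbsn* without either W6 replicate or D0 replicate 2. *Ivl* and *Sbsn* were already higher than D0 at W1 and *Ivl* and *Flg* at W2, whereas 0 basal markers were called at either. Summed, the basal markers stood at 46000 and 47900 TPM (D0), 34300 and 35300 (W1), 31600 and 34400 (W2), 34700 and 34500 (W6), and 43900 and 45800 (W12). Their sum was thus lower at W1, W2 and W6 and close to D0 at W12. Most of it came from *Krt14* and *Krt5*, with D0 means of 30500 and 14700 TPM. The suprabasal sums overlapped, at 2470 and 1260 TPM (D0) and 1520 and 2340 (W6). Of the 5 immune markers tested, 2 were lower at W6 than at D0 and 0 higher, beside 14.1% and 18.3% of all genes, namely the MHC class II genes *Cd74* (−2.53, SE 0.31, adjusted p = 0.000761) and *H2-Aa* (−1.21, SE 0.24, adjusted p = 0.00731), and both calls held without D0 replicate 2. At W1 and at W2 *H2-Aa* had instead been higher than at D0, calls that were lost without D0 replicate 2. The 14 immune markers summed to 49.5 and 33.2 TPM (D0) and 25.3 and 10.4 (W6). The part of these changes in the lower ISG values at W6 was not tested.

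At W12, 11 of 28 ISGs were higher than at D0 and 3 lower, against 43% of all genes called, with 17.9% higher and 25.1% lower. The median change of the 28 was 0.6, beside −0.08 for all genes tested. Of the 24 genes not carried by W12, 8 were higher and 3 lower. Without D0 replicate 2 the counts were 9 higher and 2 lower, and without W12 replicate 1 the calls of *Adar*, *Ifi35*, *Isg15*, *Samd9l* and *Xaf1* were lost and 9 remained. Set against W6, 19 of 28 were higher at W12 and 0 lower, against 20.2% of all genes, with 6.66% higher and 13.5% lower. The median change from W6 was 1.65, beside −0.16 for all genes, and of the 24 genes not carried by W12 15 were higher. The 2 contrasts share the W12 libraries, and their values stand side by side.

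**Figure D2:**
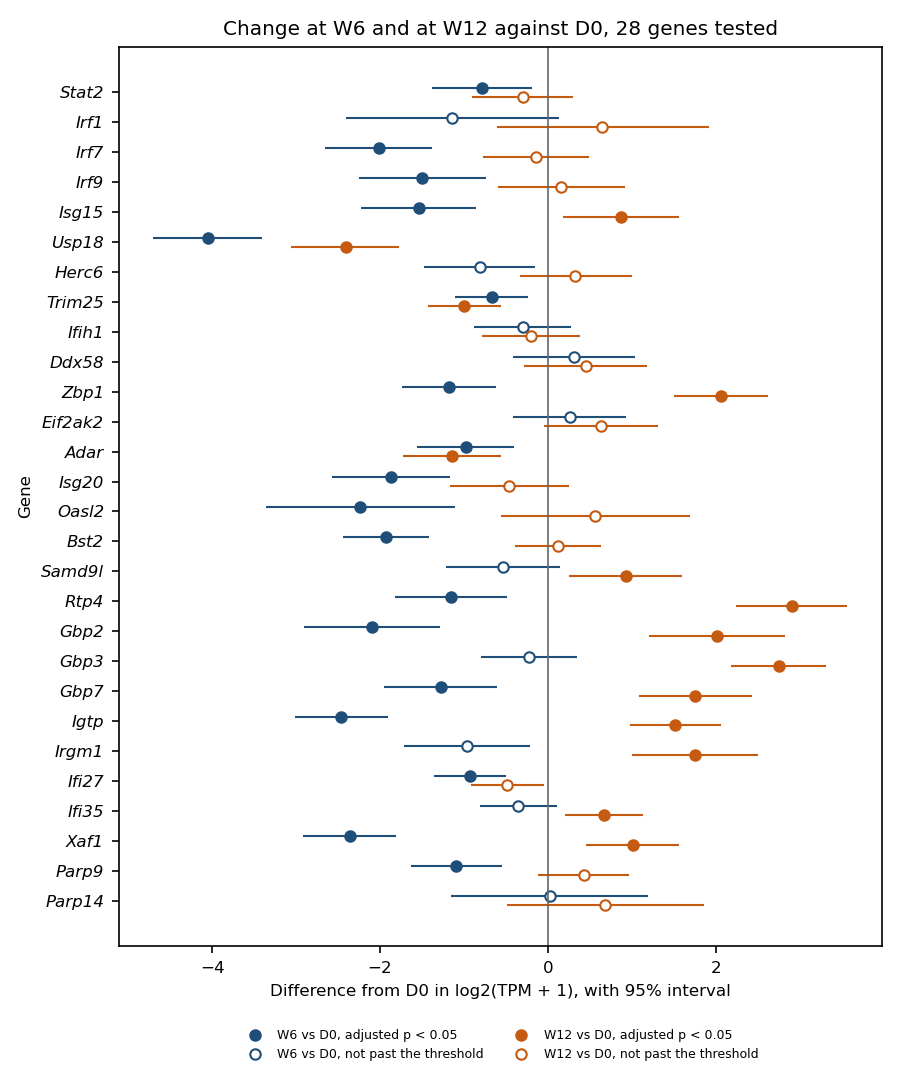
Difference in log2(TPM + 1) from D0 at W6 (blue) and at W12 (orange) for the 28 genes tested, with 95% intervals from limma, filled where the adjusted p was under 0.05. All 18 filled blue points lie below 0, and the filled orange points lie above 0 for 11 genes and below 0 for *Usp18*, *Trim25* and *Adar*.

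Markers of cells that the sort should remove also moved at W12. The 5 endothelial markers summed to 35.2 and 80 TPM in the W12 libraries and to at most 2.23 TPM in the 8 others, each of the 5 above 1 TPM in both W12 libraries. *Pecam1*, which encodes the CD31 used to gate out endothelial cells, was listed at 26.1 and 59.8 TPM (W12) and at most 1.14 TPM elsewhere, so that it too passed only through W12 (log2 change from D0 5.21, SE 0.36, adjusted p = 2.84e-05). The 14 immune markers summed to 235 and 258 TPM (W12) and 10.4 to 53.5 TPM elsewhere, carried by *Cd74*, *H2-Aa* and *H2-Ab1*, antigen-presentation genes that interferon-γ also raises. Of the 5 immune markers tested, 4 were higher at W12 than at D0 and 0 lower, beside 17.9% and 25.1% of all genes, but without D0 replicate 2 only *Cd74* and *H2-Aa* were called. The fourth was *Coro1a*, an actin regulator of leukocytes that passed the filter only through W12, at 0.753 and 0.69 TPM (D0) and 1.78 and 2.1 (W12), with a change of 0.77 (SE 0.21, adjusted p = 0.0192) that was not called without D0 replicate 2 or W12 replicate 2. The macrophage gene *Cd68* was at 1.2 and 0.796 TPM (D0) and 1.49 and 2.6 (W12), with an adjusted p of 0.116 in limma, and the myeloid gene *Lyz2* at 0.0411 and 0.0465 TPM (D0) and 0.171 and 0.956 (W12). *Ptprc*, which encodes CD45, stood at 0.0184 and 0.327 TPM (W12), *Cd3e* at 0.0317 and 0.037, and *Ms4a1* at 0 in both. The 6 fibroblast markers summed to 13.7 and 28.1 TPM (W12), to 52.2 TPM in W6 replicate 2 and to at most 4.06 TPM elsewhere, with *Dcn* alone at 13.2, 27.2 and 51.2 TPM in those 3 libraries. The 5 melanocyte markers summed to 1.22 and 4.89 TPM (D0), 4.48 and 11.7 (W6) and 12.5 and 10.9 (W12). Of the 3 tested, *Tyrp1* (1.53, SE 0.38, adjusted p = 0.0119) and *Dct* (1.3, SE 0.44, adjusted p = 0.0416) were higher at W12 than at D0 and 0 lower, beside the same shares, with *Tyrp1* having passed the filter only through W12. Neither was called without D0 replicate 1 or W12 replicate 1, nor *Dct* without W12 replicate 2. *Kit*, which encodes the CD117 used in the gate, was listed at 0.039 and 0.24 TPM (D0) and 0.509 and 1.87 (W12). Among the 6 basal keratinocyte markers, *Col17a1* (−1.77, SE 0.25, adjusted p = 0.000951), *Trp63* (−1.83, SE 0.31, adjusted p = 0.00231) and *Krt5* (−0.95, SE 0.17, adjusted p = 0.0027) were lower at W12 than at D0 and *Itgb1* (0.78, SE 0.18, adjusted p = 0.0089) was higher. Among the 6 suprabasal ones, *Ivl* (2.82, SE 0.23, adjusted p = 5.98e-05) and *Sbsn* (1.19, SE 0.33, adjusted p = 0.0188) were higher and *Lor* (−2.6, SE 0.43, adjusted p = 0.0019) was lower. The call of *Itgb1* was lost without W12 replicate 2, and that of *Sbsn* without D0 replicate 2 or either W12 replicate. The part of endothelial, immune, stromal or melanocyte RNA, or of the change in keratinocyte markers, in the W12 values of the ISGs was not tested.

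Of the 4 transcription factors that carry the interferon signal, 3 were lower at W6 than at D0, beside 14.1% of all genes, 0 were called at W12, and 2 were higher at W12 than at W6, beside 6.66%. Only *Irf7* was called at W6 without D0 replicate 2. *Irf7*, the factor that amplifies type I interferon production, was listed at 8.63 and 11.4 TPM (D0), 4.82 and 3.83 (W1), 5.95 and 3.03 (W2), 1.71 and 1.7 (W6), and 8.29 and 9.6 (W12). Both W6 libraries lay below all others, and the D0 and W12 libraries overlapped. The change from D0 was −1.04 at W1 (SE 0.28, adjusted p = 0.0491), −1.05 at W2 (SE 0.28, adjusted p = 0.0367) and −2.01 at W6 (SE 0.28, adjusted p = 0.00129). At W12 it was −0.14 (SE 0.28, adjusted p = 0.712), with a 95% interval from −0.77 to 0.49. Without D0 replicate 2 the calls at W1 and W2 were lost, and the W12 difference was 0.04. The W1 call was also lost without D0 replicate 1 or either W1 replicate, and the W2 call without W2 replicate 2. Over all alternatives in which *Irf7* was tested, the W1 call was not kept in 10 of 14 and the W2 call in 5 of 13.

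*Irf9*, the DNA-binding partner of STAT2, was listed at 20.1 and 24.4 TPM (D0), 26.1 and 26.2 (W1), 22.5 and 16.4 (W2), 4.49 and 11.2 (W6), and 24.8 and 25 (W12). Only the W6 pair stood clear below the other 8 libraries. It fell by 1.5 on the log2 scale from D0 to W6 (SE 0.33, adjusted p = 0.0104, not called without D0 replicate 2) and was 1.66 higher at W12 than at W6 (SE 0.33, adjusted p = 0.0113, not called without either W12 replicate). *Stat2*, a factor of type I and type III interferon signalling, was listed at 8.9 and 11.3 TPM (D0), 10.5 and 11.3 (W1), 9.83 and 7.71 (W2), 4.31 and 6.71 (W6), and 6.43 and 9.81 (W12). The W6 values overlapped those of W12. The change from D0 to W6 of −0.78 was close to the threshold (SE 0.26, adjusted p = 0.0496) and was not called when either D0 replicate or W6 replicate 1 was left out. *Irf1*, a rapidly induced factor of interferon-γ signalling, spread widely between replicates. It was listed at 121 and 74.5 TPM (D0), 70.8 and 19.8 (W1), 132 and 69.2 (W2), 50.4 and 36.1 (W6), and 121 and 185 (W12). Its changes from D0 of −1.14 at W6 (SE 0.55, adjusted p = 0.146) and 0.65 at W12 (SE 0.55, adjusted p = 0.367) did not pass the threshold.

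The ISG15 system attaches the ubiquitin-like protein ISG15 to other proteins, with HERC6 and TRIM25 as ligases and USP18 as the enzyme that removes it. Of its 4 genes, 3 were lower at W6 than at D0, beside 14.1% of all genes. At W12 *Isg15* was higher than at D0 and *Usp18* and *Trim25* were lower, beside 17.9% and 25.1%. With D0 replicate 2 left out, 2 were lower at W6, and at W12 0 were higher and 2 lower. *Isg15* was listed at 11.1 and 8.92 TPM (D0), 5.74 and 3.4 (W1), 3.62 and 3.33 (W2), 1.92 and 3.84 (W6), and 21.7 and 16.5 (W12). Both W12 libraries lay above all others and the D0 pair above every library of W1 to W6. It changed by −1.29 at W2 (SE 0.3, adjusted p = 0.0231), −1.54 at W6 (SE 0.3, adjusted p = 0.00633) and 0.87 at W12 (SE 0.3, adjusted p = 0.0464). The W2 call was lost when any 1 of its 4 libraries was left out, and so was the W12 call against D0, whereas the rise from W6 to W12 of 2.41 (SE 0.3, adjusted p = 0.00151) held in all of them.

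*Usp18*, which also blocks the type I receptor, had the largest fall of the 28 genes on the log2(TPM + 1) scale at W1, W2 and W6 and was still lower than D0 at W12. It was listed at 25.1 and 33 TPM (D0), 8.1 and 7.63 (W1), 1.85 and 1.68 (W2), 0.393 and 1.31 (W6), and 5.56 and 3.78 (W12). The values of D0, W1, W12 and W2 followed each other downward with no overlap between these groups. Its mean TPM was 34.1-fold lower at W6 than at D0 and 6.22-fold lower at W12. On the log2 scale it changed by −1.75 at W1 (SE 0.28, adjusted p = 0.00633), −3.43 at W2 (SE 0.28, adjusted p = 0.000223), −4.05 at W6 (SE 0.28, adjusted p = 7.04e-05) and −2.41 at W12 (SE 0.28, adjusted p = 0.00036). The calls at W2, W6 and W12 held without D0 replicate 2, and the call at W1 was lost without W1 replicate 2.

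*Trim25*, which also acts on the sensor RIG-I, was listed at 10.1 and 9.9 TPM (D0), 12.9 and 11.4 (W1), 13.8 and 12.1 (W2), 6.82 and 5.1 (W6), and 4.87 and 4.19 (W12). All 4 libraries of W6 and W12 lay below the 6 earlier ones, with a change of −0.67 at W6 (SE 0.19, adjusted p = 0.0272) and −1 at W12 (SE 0.19, adjusted p = 0.00375). The W6 call was lost without either D0 replicate or W6 replicate 2, and the W12 call held. *Herc6*, the main ISG15 ligase of the mouse, was low, with 1.29 and 1.71 TPM (D0), 0.191 and 0.691 (W6), and 1.8 and 2.52 (W12). It was not called against D0 at any timepoint, and was 1.15 higher at W12 than at W6 (SE 0.29, adjusted p = 0.0272), a call lost when either W12 replicate or W6 replicate 1 was left out. Of 3 conjugating enzymes that serve the same system, 1 was lower at W6 and 2 were higher at W12 than at D0, with 0 the other way. The shares of all genes were 14.1% and 17.9%. Neither W12 call held without D0 replicate 2. Of the 3, *Ube2l6* was listed at 15.7 and 13.2 TPM (D0), 5.8 and 6.15 (W6), and 24 and 24.1 (W12). Its change was −1.14 at W6 (SE 0.19, adjusted p = 0.00289) and 0.7 at W12 (SE 0.19, adjusted p = 0.0165), the second of them lost without D0 replicate 2 or either W12 replicate.

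**Figure D3:**
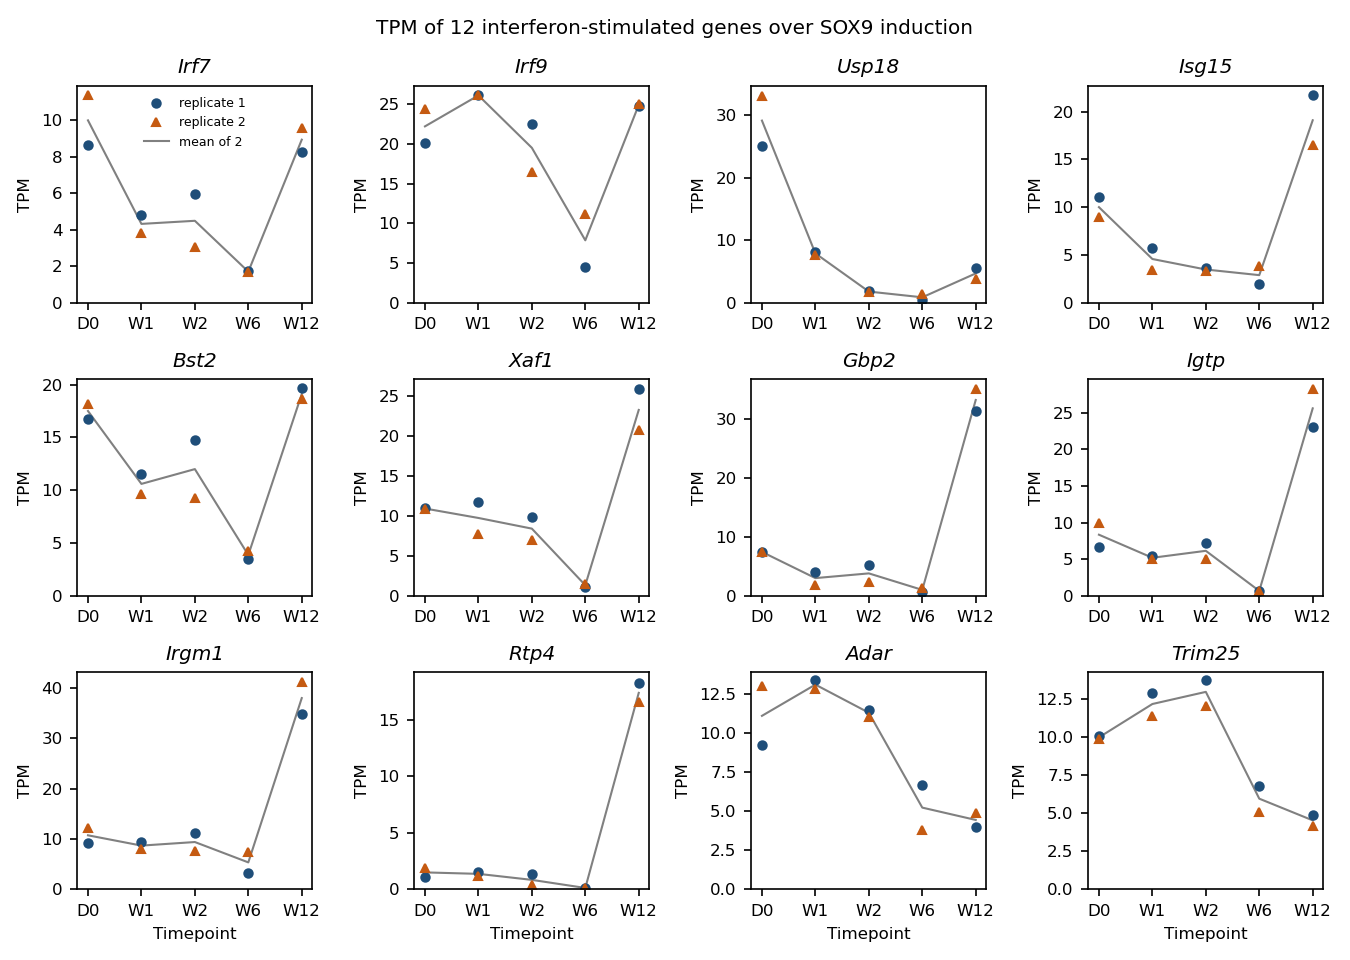
TPM of 12 ISGs in each library, with replicate 1 as circles, replicate 2 as triangles and the mean of the 2 as a grey line, over timepoints placed at equal steps rather than by week. Most of the 12 reach their lowest values at W6, the GTPases and *Rtp4* rise far above D0 at W12, and *Usp18*, *Adar* and *Trim25* remain below D0 at W12.

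Of the 5 sensors and RNA-binding enzymes tested, 2 were lower at W6 than at D0, beside 14.1% of all genes, and at W12 1 was higher and 1 lower, beside 17.9% and 25.1%. *Zbp1* was among those that reached 1 TPM only through W12, and of the other 4, 1 was lower at W6, and at W12 0 were higher and 1 lower. At W6, 0 of the 5 were called without D0 replicate 2. *Zbp1*, a sensor of Z-form nucleic acid that can start necroptosis, was listed at 1.16 and 1.77 TPM (D0), 0.294 and 0.298 (W1), 0.54 and 0.186 (W2), 0.0642 and 0.0938 (W6), and 10.5 and 8.11 (W12). D0 lay above W1, W2 and W6, and W12 lay above D0, with no overlap. Its change was −0.85 at W2 (SE 0.25, adjusted p = 0.0496), −1.18 at W6 (SE 0.25, adjusted p = 0.00847) and 2.07 at W12 (SE 0.25, adjusted p = 0.000399), of which only the last held without D0 replicate 2. The W2 call was also lost without either W2 replicate. *Adar*, the enzyme that edits adenosine in double-stranded RNA and keeps self-RNA from being sensed, was listed at 9.24 and 13 TPM (D0), 13.4 and 12.8 (W1), 11.5 and 11 (W2), 6.64 and 3.8 (W6), and 3.99 and 4.88 (W12). Again the W6 and W12 libraries all lay below the earlier 6. The calls of −0.98 at W6 (SE 0.26, adjusted p = 0.0195) and −1.14 at W12 (SE 0.26, adjusted p = 0.00759) were both lost without D0 replicate 2, the first also without W6 replicate 2 and the second also without W12 replicate 1.

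The cytosolic RNA sensors and PKR were not called against D0. *Ddx58*, which encodes RIG-I, was listed at 6.78 and 5.43 TPM (D0), 13.1 and 14.9 (W1), 8.77 and 7.23 (W2), 5.01 and 11.8 (W6), and 8.32 and 9.02 (W12). Its W1 pair lay above all 8 other libraries, but the change of 1.08 did not pass the threshold (SE 0.32, adjusted p = 0.0696). *Ifih1*, which encodes MDA5, had a mean of 0.929 to 2.25 TPM over the timepoints, and *Eif2ak2*, which encodes PKR, of 5.86 to 9.2 TPM.

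Among the antiviral effectors, 5 of 12 could be tested, and all 5 were higher at W12 than at W6, beside 6.66% of all genes. Against D0, 4 of the 5 were lower at W6, beside 14.1%, and 2 were higher at W12, beside 17.9%. Without *Rtp4*, which passed only through W12, all 4 were higher at W12 than at W6, and against D0 3 of 4 were lower at W6 and 1 higher at W12. With D0 replicate 2 left out, 2 of the 5 were lower at W6 and 2 higher at W12. *Bst2*, the tetherin that holds budding virus at the cell surface, was listed at 16.7 and 18.2 TPM (D0), 11.5 and 9.62 (W1), 14.8 and 9.24 (W2), 3.51 and 4.23 (W6), and 19.7 and 18.6 (W12). The W6 pair lay below all 8 others, and the W12 pair just above the D0 pair. It changed by −1.93 at W6 (SE 0.23, adjusted p = 0.00062) and by 0.12 at W12 (SE 0.23, adjusted p = 0.685), the latter with a 95% interval from −0.39 to 0.64. *Isg20*, an RNA exonuclease, was listed at 6.37 and 11.6 TPM (D0), 4.03 and 2.98 (W1), 2.36 and 1.98 (W2), 1.66 and 1.63 (W6), and 4.63 and 7.75 (W12). Its values fell below the D0 pair at W1 and below the W1 pair at W2, with a change of −1.61 at W2 (SE 0.31, adjusted p = 0.0105) and −1.87 at W6 (SE 0.31, adjusted p = 0.00304). The W2 call was lost without D0 replicate 2 or either W2 replicate, and the W6 call held.

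*Oasl2*, a relative of the oligoadenylate synthetases, was listed at 3.39 and 8.94 TPM (D0), 2.82 and 1.7 (W1), 1.96 and 0.394 (W2), 0.0761 and 0.826 (W6), and 10.6 and 7.26 (W12). Its D0 replicates lay far apart, and the changes of −1.7 at W2 (SE 0.49, adjusted p = 0.0495) and −2.24 at W6 (SE 0.49, adjusted p = 0.0102) were lost without D0 replicate 2, the first also without either W2 replicate and the second without W6 replicate 1. Over all alternatives, the W2 call of *Oasl2* was not kept in 9 of 12. *Rtp4*, an interferon-induced inhibitor of flavivirus replication, was listed at 1.1 and 1.85 TPM (D0), 1.51 and 1.19 (W1), 1.3 and 0.335 (W2), 0.0916 and 0.108 (W6), and 18.3 and 16.6 (W12). No group overlapped W12 or W6. The mean TPM was 11.8-fold higher at W12 than at D0, with a change of −1.15 at W6 (SE 0.29, adjusted p = 0.0177, not called without D0 replicate 2) and 2.91 at W12 (SE 0.29, adjusted p = 0.000158). *Samd9l*, a restriction factor that halts translation, was listed at 1.17 and 2.08 TPM (D0), 1.11 and 1.74 (W1), 0.952 and 1.16 (W2), 0.428 and 1.24 (W6), and 4.29 and 3.57 (W12). Only its W12 pair stood apart, with a change of 0.93 (SE 0.3, adjusted p = 0.0335) that was lost without D0 replicate 1 or without either W12 replicate.

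The interferon-inducible GTPases, which attack the vacuoles of intracellular pathogens, rose together at W12. All 5 were higher than at D0, beside 17.9% of all genes, and than at W6, beside 6.66%, with a median change of 1.76 and 3.04, and all 10 of these calls held in every alternative in which the gene was tested. Without *Gbp3*, which passed only through W12, all 4 were higher in both comparisons, with medians of 1.76 and 3.51. At W6, 3 of the 5 were lower than at D0, beside 14.1% of all genes, and 2 of the 5 without D0 replicate 2. *Gbp2* was listed at 7.5 and 7.4 TPM (D0), 4.12 and 1.9 (W1), 5.2 and 2.42 (W2), 0.636 and 1.39 (W6), and 31.4 and 35 (W12). D0 lay above W1, W2 and W6, and both W12 libraries above every other. It fell by 2.09 on the log2 scale at W6 (SE 0.36, adjusted p = 0.00337) and was 2.02 above D0 at W12 (SE 0.36, adjusted p = 0.00263), a 4.46-fold higher mean TPM.

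*Igtp*, also named Irgm3, was listed at 6.73 and 9.96 TPM (D0), 5.41 and 5 (W1), 7.24 and 5.05 (W2), 0.636 and 0.714 (W6), and 23.1 and 28.2 (W12). The W6 pair was 12.4-fold below D0 in mean TPM and clear of all others, with a change of −2.46 (SE 0.24, adjusted p = 0.000261). At W12 the change was 1.52 (SE 0.24, adjusted p = 0.00151). *Gbp7* was listed at 2.67 and 3.46 TPM (D0), 2.2 and 1.07 (W1), 2.29 and 1.48 (W2), 0.457 and 0.925 (W6), and 11 and 14.8 (W12). The D0 pair lay above W1, W2 and W6, with a change of −1.27 at W6 (SE 0.3, adjusted p = 0.0127) that was lost without D0 replicate 2 and without W6 replicate 1, and of 1.76 at W12 (SE 0.3, adjusted p = 0.00208).

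*Irgm1*, which governs the loading of the other IRG proteins, was listed at 9.08 and 12.2 TPM (D0), 9.39 and 7.91 (W1), 11.1 and 7.6 (W2), 3.2 and 7.43 (W6), and 34.9 and 41.2 (W12). The D0, W1 and W2 libraries overlapped, and the change of −0.96 at W6 did not pass the threshold (SE 0.33, adjusted p = 0.0546). At W12 the change was 1.75 (SE 0.33, adjusted p = 0.00349). *Gbp3* was at 0.404 and 0.245 TPM (D0), 0.297 and 0.395 (W1), 0.771 and 0.216 (W2), 0.0741 and 0.206 (W6), and 7.44 and 8.31 (W12). It did not pass 0.771 TPM before W12, when it was 24.3-fold above D0 in mean TPM, with a change of 2.75 (SE 0.25, adjusted p = 9.46e-05).

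Of the 6 other ISGs, 5 were tested, 3 were lower at W6 than at D0, beside 14.1% of all genes, and 2 higher at W12, beside 17.9%, or 2 and 1 without D0 replicate 2. *Ifi27*, a small mitochondrial and nuclear-envelope protein, had the most transcripts of the 37 genes. It was listed at 254 and 227 TPM (D0), 270 and 288 (W1), 274 and 238 (W2), 103 and 154 (W6), and 177 and 166 (W12). Both late timepoints lay below the 6 earlier libraries, with a change of −0.93 at W6 (SE 0.19, adjusted p = 0.00753) and of −0.49 at W12 (SE 0.19, adjusted p = 0.0677), which did not pass the threshold. *Xaf1*, which counters the apoptosis inhibitor XIAP, was listed at 11 and 10.9 TPM (D0), 11.7 and 7.77 (W1), 9.79 and 7 (W2), 1.14 and 1.52 (W6), and 25.8 and 20.7 (W12). Its W6 pair lay below, and its W12 pair above, all other libraries. It fell by 2.36 on the log2 scale at W6 (SE 0.24, adjusted p = 0.000352) and was 1.01 above D0 at W12 (SE 0.24, adjusted p = 0.0107), a call lost without W12 replicate 1.

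*Ifi35*, an interferon-induced leucine zipper protein, was listed at 39.4 and 33 TPM (D0), 30 and 36.8 (W1), 29.1 and 24.6 (W2), 23.5 and 33.6 (W6), and 58 and 58.3 (W12). Here W6 did not stand apart, and the change of 0.67 at W12 (SE 0.2, adjusted p = 0.0259) was lost without D0 replicate 2 or without either W12 replicate. *Parp9*, an ADP-ribosylation factor that works with DTX3L, was listed at 11.6 and 14.3 TPM (D0), 8.02 and 6.89 (W1), 8.86 and 6.69 (W2), 4.33 and 7.01 (W6), and 18.3 and 17.1 (W12). Its change was −1.09 at W6 (SE 0.24, adjusted p = 0.0102), lost without D0 replicate 2, and 1.52 from W6 to W12 (SE 0.24, adjusted p = 0.00433). *Parp14* was not called in any comparison, with 0.634 and 5.34 TPM in the W6 replicates.

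The 9 genes too low to test all had their highest mean at W12, and in all 9 both W12 libraries lay above the 8 others, as they did for 7.4% of all genes with a TPM above 0. *Ifit1*, which binds viral RNA caps, was listed at 0.338 and 0.602 TPM (D0), 0.00684 and 0.205 (W6), and 3.1 and 1.99 (W12). *Oasl1* was listed at 0.108 and 0.0587 TPM (D0), 0.0904 and 0 (W6), and 0.965 and 2.01 (W12). *Dhx58*, which encodes LGP2, was listed at 0.345 and 1.11 TPM (D0), 0.207 and 0.353 (W6), and 1.93 and 2.3 (W12). The remaining 6, *Ifit2*, *Ifit3*, *Rsad2*, *Oas2*, *Oas3* and *Ifi44*, had W12 means of 0.291 to 1.65 TPM. When every gene with a TPM above 0 was entered in the fit, *Ifit1*, *Ifit3*, *Oas2*, *Oas3* and *Oasl1* were higher at W12 than at D0, with changes of 0.41 to 1.26 and adjusted p of 0.00868 to 0.0448. In that fit 6.81% of all 38965 genes were higher, and 3.97% of the 25855 with a mean under 1 TPM.

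The changes of genes with and without an ISRE match may be set side by side. At W12 the 11 tested genes with a match had a median change from D0 of 0.87, with 6 higher and 0 lower, and the 11 with a window but no match a median of 0.33, with 3 higher and 2 lower, beside 17.9% higher and 25.1% lower of all genes tested. At W6 the medians were −0.96 and −1.14, with 6 and 7 lower, beside 14.1%. Without *Gbp3* and *Herc6*, which passed only through W12, the medians over 10 genes each were 0.75 and 0.36 at W12, with 5 and 3 higher, and −1.12 and −1.32 at W6. Without D0 replicate 2, *Gbp7* and *Stat2* of the genes with a match were no longer called at W6. Nor were *Adar*, *Irf9*, *Oasl2* and *Trim25* of those without a match. At W12 the calls of *Isg15* in the first set and of *Adar* and *Ifi35* in the second were lost. These splits were not tested against each other.

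Upstream of the ISGs, the interferons themselves were barely listed. None of 9 ligand genes was tested, their sum was at most 0.249 TPM in any library, and *Ifng*, *Ifna1*, *Ifna2* and *Ifna4* were listed at 0 in all 10. The keratinocyte interferon gene *Ifnk* was listed at 0.205 and 0.0333 TPM (D0) and 0.0631 and 0 TPM (W12). The receptors were present throughout. Of 9 receptor and JAK genes, 2 were lower than D0 at W6, beside 14.1% of all genes, and 5 were lower at W12, beside 25.1%, with 0 higher at either. These counts were 1 and 3 without D0 replicate 2.

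*Ifngr1*, the ligand-binding chain of the interferon-γ receptor, was listed at 216 and 335 TPM (D0), 131 and 99.3 (W1), 128 and 147 (W2), 31.1 and 46.2 (W6), and 69.5 and 66.1 (W12). No later library reached the D0 range, and W6 and W12 lay below W1 and W2. Its change was −1.23 at W1 (SE 0.26, adjusted p = 0.0188), −0.97 at W2 (SE 0.26, adjusted p = 0.0358), −2.79 at W6 (SE 0.26, adjusted p = 0.000192) and −1.97 at W12 (SE 0.26, adjusted p = 0.000578). Without D0 replicate 2 the calls at W1 and W2 were lost, as they were without W1 replicate 2 and either W2 replicate, and those at W6 and W12 held. *Ifngr2*, the partner chain, was called only at W1 (0.59, SE 0.15, adjusted p = 0.043), and that call was lost when any 1 of its 4 libraries was left out.

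*Ifnar1*, a chain of the type I receptor, was listed at 17 and 19.3 TPM (D0) and 12 and 13.4 TPM (W12), a change of −0.48 (SE 0.16, adjusted p = 0.0408) that was not called without D0 replicate 2, without either W12 replicate, or after median-ratio or quantile scaling. *Ifnar2*, the other chain, had a change of 0.4 at W12 (SE 0.21, adjusted p = 0.146). *Tyk2*, a kinase of the type I receptor, fell from 14.9 and 17.2 TPM at D0 to 6.95 and 8.55 at W12 (−0.97, SE 0.22, adjusted p = 0.00795, not called without W12 replicate 1), and *Ifnlr1*, a type III receptor chain, from 4.54 and 5.42 to 1.95 and 1.34 TPM (−1.18, SE 0.24, adjusted p = 0.00519).

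Of 6 other STAT and IRF factors tested, 3 were lower than D0 at W6 and 3 at W12, with 0 higher at either. The shares of all genes lower were 14.1% and 25.1%. Fewer of the 6 were called at either timepoint without D0 replicate 2. Among them, *Irf2*, which opposes IRF1, went from 25.4 and 36.2 TPM at D0 to 12.9 and 9.79 TPM at W12 (−1.35, SE 0.21, adjusted p = 0.00151).

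Of the genes that sense nucleic acid upstream of interferon, 8 of 9 were tested, with 1 higher and 4 lower at W12 than at D0, beside 17.9% and 25.1% of all genes. The counts were 1 higher and 2 lower without D0 replicate 2, and of the 7 that reached a mean of 1 TPM over D0 to W6, 0 were higher and 4 lower. The gene that was higher, and that passed only through W12, was *Sting1*, the adaptor of cytosolic DNA sensing, listed at 0.602 and 0.314 TPM (D0), 0.818 and 2.04 (W6), and 18.1 and 38.8 at W12 (4.25, SE 0.38, adjusted p = 8.57e-05). The endothelial markers were also higher at W12, and their part in this value was not tested. *Ikbke*, the kinase IKKε, fell from 33.9 and 34.6 TPM at D0 to 11.1 and 8.59 at W12 (−1.71, SE 0.26, adjusted p = 0.00133). Of 5 negative regulators, 3 were lower at W6 and 2 at W12, beside the same 14.1% and 25.1%, and without D0 replicate 2 1 was lower at each. *Socs3*, an inhibitor of JAK signalling, fell by 2.02 on the log2 scale at W1 (SE 0.39, adjusted p = 0.0143), a call that was lost without D0 replicate 2 or W1 replicate 2.

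A further list held 41 ISGs outside the 37. Of the 33 tested, 19 were lower and 2 higher at W6 than at D0, with a median of −0.93, beside 14.1% lower and 18.3% higher of all genes. At W12, 17 were higher and 5 lower, with a median of 0.74, beside 17.9% and 25.1%. Only 24 of the 33 reached a mean of 1 TPM over D0 to W6, and of these 15 were lower and 3 higher at W6, with a median of −1.01, and 9 higher and 5 lower at W12, with a median of 0.23. When D0 replicate 2 was left out, 10 of the 33 were lower and 1 higher at W6, and 13 higher and 3 lower at W12. Among the genes that passed only through W12 were *Ifi47*, *Tgtp1* and *Tgtp2*. *Ifi47*, a GTPase of the IRG family, was listed at 2.1 and 1.88 TPM (D0), 0.224 and 0.0346 (W6), and 27 and 31.5 (W12), and so changed by −1.41 at W6 (SE 0.26, adjusted p = 0.00468) and 3.34 at W12 (SE 0.26, adjusted p = 4.44e-05). *Tgtp1* and *Tgtp2*, near-identical GTPase genes whose reads could be split between them in error, rose by 3.13 (SE 0.28, adjusted p = 9.44e-05) and 3.94 (SE 0.26, adjusted p = 2.16e-05) at W12. *Ly6a*, which encodes the antigen used to sort the cells and is itself interferon-inducible, was listed at 756 and 565 TPM (D0), 293 and 268 (W2), 275 and 421 (W6), and 1170 and 1110 (W12). Its change was −1.22 at W2 (SE 0.23, adjusted p = 0.00905, not called without W2 replicate 2), −0.94 at W6 (SE 0.23, adjusted p = 0.0146, not called without D0 replicate 1 or W6 replicate 1) and 0.8 at W12 (SE 0.23, adjusted p = 0.0211, not called without D0 replicate 2 or either W12 replicate).

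**Figure D4:**
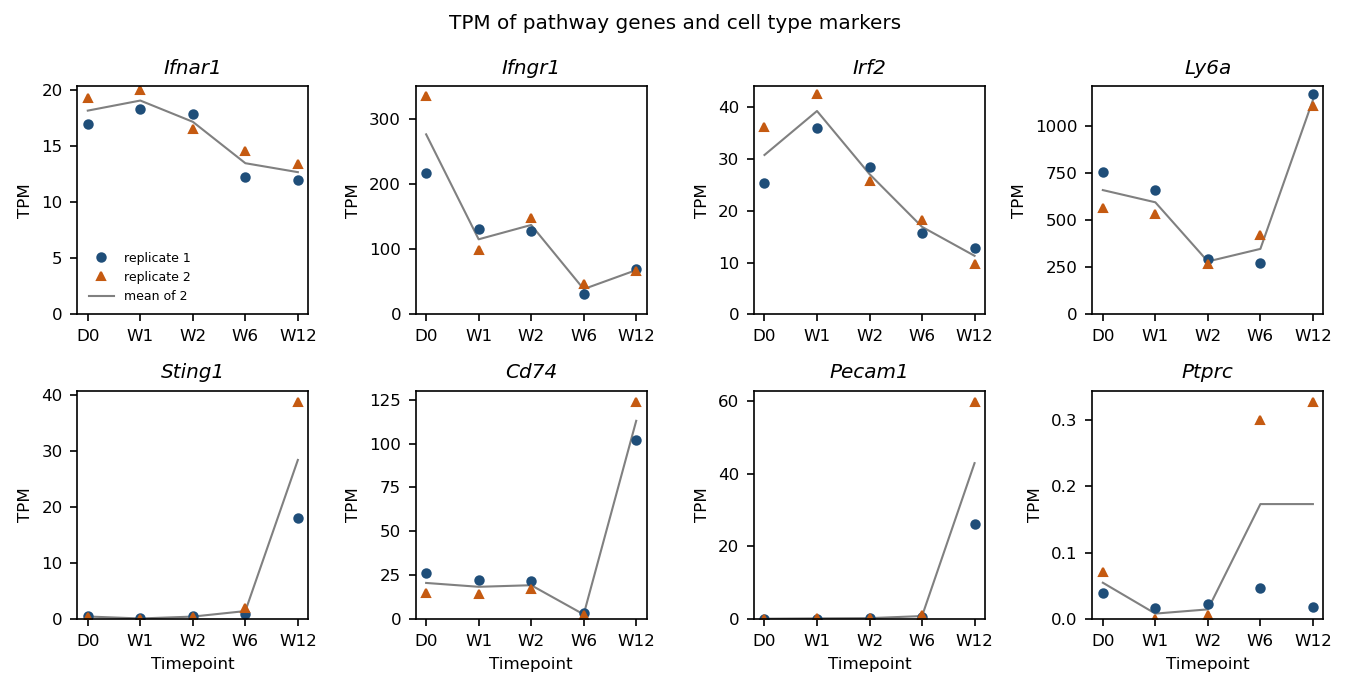
TPM of pathway genes (*Ifnar1*, *Ifngr1*, *Irf2*, *Ly6a*, *Sting1*) and of cell type markers (*Cd74*, *Pecam1*, *Ptprc*) in each library, drawn as for the 12 ISGs, each panel on its own scale. *Ly6a* and *Cd74* are highest at W12, *Ifngr1* is highest at D0, *Irf2* is lowest at W12, *Pecam1* and *Sting1* are near 0 before W12, and *Ptprc* stays at or below 0.327 TPM.

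*Cd74*, the invariant chain of MHC class II, was listed at 26.4 and 14.8 TPM (D0), 3.2 and 2.09 (W6), and 102 and 124 (W12), a change from D0 of −2.53 at W6 (SE 0.31, adjusted p = 0.000761) and of 2.45 at W12 (SE 0.31, adjusted p = 0.000553).

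Some of the values can hold reads of overlapping genes, since whether the counting used strand is not given in the sources used here. *Irf7* overlaps exons of *Phrf1* (mean 25.1 TPM) on the other strand, *Irf1* those of *Gm17334* (18 TPM), *Parp9* those of *Dtx3l* (4.89 TPM), and on the same strand *Irf9* overlaps *Rnf31* (12 TPM) and *Igtp* overlaps *Irgm2* (2.36 TPM).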

How the data were processed

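RNA-seq of 10 time-course libraries of sorted EpdSCs was used, and groups and replicate numbers were taken from the sample labels. The authors trimmed reads with Skewer, quantified transcripts with Salmon 1.4.0 against GENCODE transcripts of GRCm38 extended by the transgene, and summed them to genes with Tximport 1.12.3. They deposited TPM per gene, which carry no depth. The placode table holds the authors' own comparison (a mean, log2 fold changes, a test score and p-values) and was not used, nor were its 4 samples.

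Genes whose TPM averaged at least 1 over the 10 libraries were tested on log2(TPM + 1), a scale that understates changes of low genes. limma 3.58.1 in R 4.3.3 fitted 5 timepoint means over all 10 libraries, with eBayes and a variance trend, and adjusted p by Benjamini-Hochberg over all genes tested. The count test of the paper's methods cannot be run on TPM. With 2 biological replicates a group, p-values rest on few samples. The 37 genes and the lists of pathway and marker genes were chosen with earlier results of these data known. The text gives library values for ISGs past the threshold against D0, for the 4 factors, and, per pathway list, for fixed genes, of which 1 is not reported here, and up to 3 with the smallest F-test p. Those given with values after they had been seen were *Herc6*, *Ddx58*, *Parp14*, *Ifit1*, *Oasl1*, *Dhx58* and the genes of the cell type marker lists. Overlaps were taken from GENCODE M21 exons on GRCm38, and promoter windows from RefSeq. The fit was tested on simulated data. Python 3.11.15 with pandas 2.3.3, numpy 2.4.6 and matplotlib 3.10.9 did the rest. Alternatives were another pseudocount (0.1), other filters, median-ratio and quantile scaling, eBayes with no variance trend, fits of 4 libraries alone, a minimum absolute log2 change of 1, the replicate block and leaving out each replicate, while the filter over D0 to W6, the alternatives of the F test and the counts per gene group under that filter or without D0 replicate 2 were chosen after seeing the data.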

Additional observations from a re-analysis of the deposited data

How the results depend on the processing

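The counts of ISGs called rest on 2 replicates a group, and those at W1 and W2 against D0 and at W6 against W2 varied widely for their size with the setting. Leaving out 1 library gave 0 to 3 ISGs at W1, 1 to 6 at W2, 9 to 19 at W6 and 9 to 13 at W12 against D0, 2 to 8 for W6 against W2, 13 to 21 for W12 against W6 and 0 for W2 against W1. With all genes above 0 TPM the counts were 1 at W1, 1 at W2 and 5 for W6 against W2. With a mean of at least 5 TPM they were 1 at W1, 3 at W2, 9 at W12 and 12 for W12 against W6, over fewer genes tested. With only the 4 libraries of a comparison, and so fewer samples, they were 1 at W1, 3 at W2, 8 at W6, 1 for W2 against W1 and 2 for W6 against W2. Quantile normalization gave 1 at W1. For the other counts that changed with the scaling or the block, the cause was not tested.

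No label used here pairs replicate numbers between timepoints, and the deviations of same-numbered libraries correlated from −0.129 to 0.182. The main fit therefore did not pair them, and whether same-numbered libraries shared a batch is not known. The replicate block gave 1 ISG at W1, 3 at W2, 19 at W6, 13 at W12, 6 for W6 against W2 and 20 for W12 against W6. Crossed pairing gave 2 at W1, 17 at W6 and 20 for W12 against W6.

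Median-ratio scaling moved the median of all genes from −0.16 to 0 for W12 against W6 and from −0.08 to 0.04 for W12 against D0. The share of higher genes among all calls moved with it from 33% to 55.6% and from 41.7% to 52.7%, and at W1 from 58.6% to 48.6%, whereas the ISGs were 11 higher and 3 lower at W12 against D0 in TPM and after the scaling, and against W6 19 higher and 0 lower in TPM and 21 higher and 0 lower after it. Of the named genes' changes, only that of *Irf7* at W12 against D0 turned direction, to 0.04 with quantile normalization and, between −0.32 and 0.04 with a library left out, to 0.04 without D0 replicate 2, and it was not called in either. Calls were lost in 232 of 1692 refits of named genes, a total that includes changes not called in the main fit, which had no call to lose.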
